A study of Mus musculus with 3 samples.

Results

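Thin filaments of the heart muscle sarcomere carry the calcium switch of contraction, and TBX5 binding was examined at the genes of 6 of their proteins, namely Tnnt2, Tnni1, Tnni3, Tnnc1, Tpm1 and Actc1. A TBX5 peak was counted for a gene if its summit, the position of highest signal, lay in the RefSeq body of the gene or within 50 kb on either side. By this rule 33 of the 12436 deposited peaks belonged to the 6 genes. The data come from chromatin immunoprecipitation and sequencing (ChIP-seq) with an anti-TBX5 antibody in hearts of CD-1 embryos, an outbred mouse stock, at E14.5, a fetal stage counted in days of development. The group of 2 TBX5 ChIP samples was set against 1 input sample of chromatin from the same kind of hearts, and the samples differ in no genotype or treatment that the labels name. Whole hearts were used, so each value averages over all cell types of the organ, and more bound cells cannot be told apart from more binding per cell. How many embryos went into a sample is not stated in the labels. Peaks give no expression level, so the tissue label was not checked against marker genes.

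The thin filament is a polymer of actin, here cardiac alpha-actin (Actc1), along which lie tropomyosin (Tpm1) and the troponin complex. Troponin C (Tnnc1) binds calcium, troponin I (Tnni1 and Tnni3) inhibits the interaction of actin with myosin, and troponin T (Tnnt2) anchors the complex to tropomyosin. The fetal heart makes the slow skeletal troponin I of Tnni1, which is replaced by the cardiac form of Tnni3 as the heart matures. TBX5 is a T-box transcription factor that acts in the developing heart with GATA4 and NKX2-5, and T-box proteins recognise DNA around the letters GGTGTGA.

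Strength is given as fold enrichment, the authors' ratio of pooled ChIP fragments to the local background at the summit. Each fold is followed in parentheses by an exact 95% Poisson interval of the summit fragments with the background held fixed. These intervals cover counting error only. Both ChIP samples were pooled before peaks were called, so no value per sample and no spread between hearts exists, and no difference was tested against replicate error. Over all peaks the median fold was 5.67, with a range of 2.11 to 85.6, from a median of 22 fragments.

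All 6 genes had a summit within 50 kb, against 49.8% of 21631 protein-coding genes. Within 10 kb all 6 still had at least 1, against 29.9%. Inside the body itself 5 of 6 had a summit, all except Tnnt2, against 19.2%. Since long genes collect more summits, the shares for 50 kb and 10 kb were also taken over the 14133 genes with a body of up to 30 kb, a length that includes each of the 6, and they were 43.6% and 21.2%. A promoter-class summit, which in the authors' annotation lies within 2000 bp of a transcription start, was found within 10 kb of all 6 genes, against 17.3% of all genes. Summits of at least 10-fold lay within 50 kb of 3 of the 6 genes, against 11.5% of all genes and 8.02% of the shorter ones. Only 2 peaks gave this count, because Tnnt2 and Tnni1 are neighbours and their windows share 3 peaks.

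RefSeq promoter windows, 250 bases before to 50 after a listed start, showed where the factor sat at the starts themselves. A summit fell inside the 300 bases for 3 of the 6 genes, Tnnt2, Tnni3 and Actc1, against 6.48% of 17274 genes with such a window. Counted by window, these were 3 of the 8 listed for the 6 genes, against 5.69% of 21045. The 250 bases before the start of these 3 genes are shown because a TBX5 summit fell in their windows, and they are taken from RefSeq on GRCm38.p6, the assembly that mm10 names. Capitals mark matches to the letters searched on both strands. They are the T-box motif AGGTGTGA in Tnni3, the GATA motif AGATAA and the TEAD motif GGAATG, both on the opposite strand, in Tnnt2, and a CArG box, the binding motif of serum response factor, in Actc1.
Tnnt2: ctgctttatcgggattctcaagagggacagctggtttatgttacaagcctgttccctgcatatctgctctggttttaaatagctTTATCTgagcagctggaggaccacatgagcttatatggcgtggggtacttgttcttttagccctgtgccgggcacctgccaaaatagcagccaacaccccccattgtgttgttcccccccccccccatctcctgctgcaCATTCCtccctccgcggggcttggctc
Tnni3: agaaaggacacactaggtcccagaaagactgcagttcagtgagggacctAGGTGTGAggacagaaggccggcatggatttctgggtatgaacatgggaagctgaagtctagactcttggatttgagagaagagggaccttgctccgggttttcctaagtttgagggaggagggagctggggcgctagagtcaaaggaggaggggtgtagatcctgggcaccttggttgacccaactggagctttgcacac
Actc1: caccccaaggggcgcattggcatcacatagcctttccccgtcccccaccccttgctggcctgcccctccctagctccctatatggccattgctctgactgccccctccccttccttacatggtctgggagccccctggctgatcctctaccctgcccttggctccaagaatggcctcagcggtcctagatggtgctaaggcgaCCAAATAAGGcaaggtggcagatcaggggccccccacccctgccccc
The Tnnt2 stretch is chr1:135836084-135836333 on the plus strand, the Tnni3 stretch chr7:4522529-4522778 on the minus strand and the Actc1 stretch chr2:114052876-114053125 on the minus strand. For Tnnt2 and Tnni3 the RefSeq body begins upstream of the listed start, inside the stretch shown.

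Of the 3 promoters only that of Tnni3 held AGGTGTGA, from 201 to 194 bases before the start. The summit in that window lay 23 bases after the start. The match itself lay in no called peak, 15 bases from the nearest peak and 207 bases from the nearest summit. AGGTGTGA was present in 1.01% of all 21045 promoter stretches and in 1.42% of the 1198 with a summit in the window. The looser T-box form GGTGTNA, which contains the same match, stood in 8.01% and 9.93%, and among the 6 genes again only in Tnni3. The strongest promoter peak of the 6 genes, at Tnnt2, covered a stretch without either form. Its GATA match lay 166 to 161 bases before the start and its TEAD match 27 to 22 bases before it, both inside the peak. GATA matches were found in 8.84% of all stretches and in 4.92% of those with a summit in the window, and TEAD matches in 11.6% and 9.93%. TEAD matches also occurred before the starts of Tnnc1 (58 to 53 bases) and Tpm1 (56 to 51 bases), where no summit fell in the window. The CArG box of Actc1, 47 to 38 bases before the start and inside a peak, was a kind of match seen in 1.402% of all stretches and in 1.59% of those with a summit. The letters AAGTG of NKX2-5 matched only at a Tnni1 start, against 39.6% of stretches. The MEF2 pattern searched (CTA and TAG with any 4 bases between them) matched none of the 6 genes, against 3.09% of all stretches. The letters TATAAA matched none of them either, against 11.7%. A match describes the letters of the reference and is not a measured site.

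**Figure D1:**
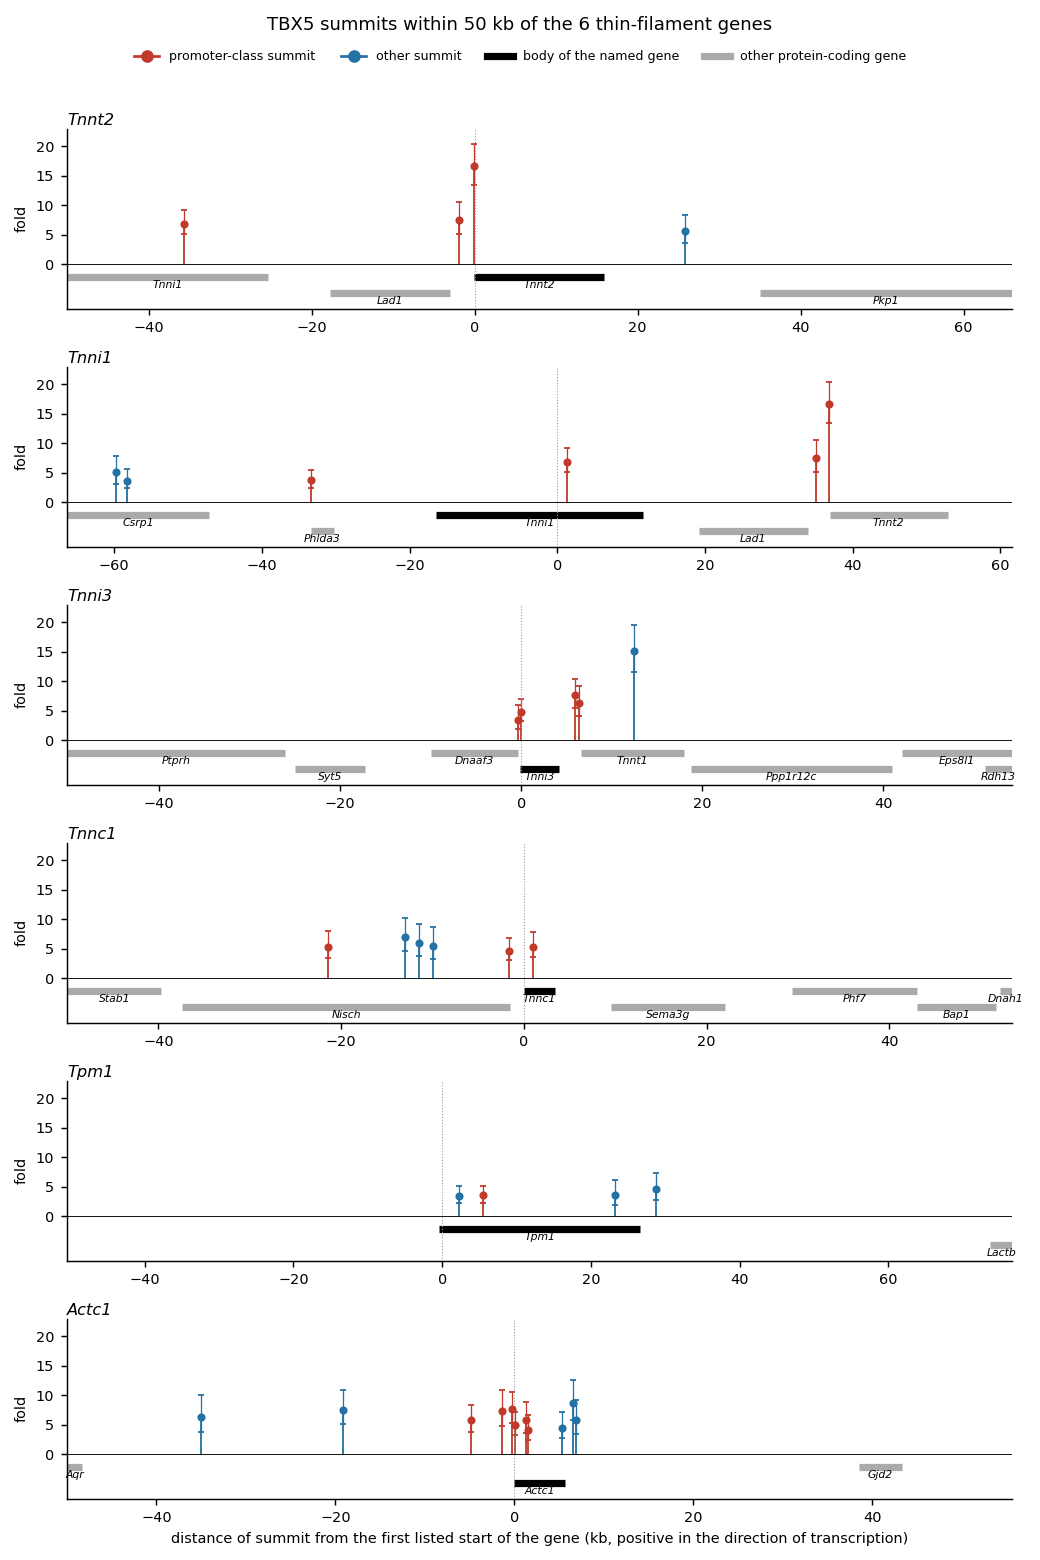
TBX5 summits around each of the 6 genes, plotted by distance from the first listed start (x axis, kb, positive in the direction of transcription) and by fold (y axis), with 95% Poisson intervals as bars. The tallest stems stand at the Tnnt2 start (16.7-fold, repeated at the right of the Tnni1 panel) and downstream of Tnni3 in Tnnt1 (15.2-fold). Of the 11 summits of Actc1, at up to 8.66-fold, 9 lie within 10 kb of the gene.

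Troponin T of the heart had the strongest peak of the group. Tnnt2, on chromosome 1 from 135836315 to 135852268, had 4 summits, of which 3 were in the promoter class, and 7.60% of all protein-coding genes had at least 4. The strongest peak spanned 135835961 to 135836419 with its summit 87 bp before the listed start, and held 90 fragments over a background of 4.45, a fold of 16.7 (13.5 to 20.5). A second promoter-class peak, at 135834284 to 135834567, lay 1910 bp before the same start with 7.49-fold (5.10 to 10.7). The Tnnt2 body itself held no summit. Beyond its other end, 9859 bp away, lay a peak of 5.62-fold (3.62 to 8.39) outside any protein-coding gene. Of all protein-coding genes 4.59% had a summit as strong as that of Tnnt2 within 50 kb.

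Tnni1, the troponin I of the fetal heart and of slow skeletal muscle, lies 25325 bp before Tnnt2 on the same strand. Its body, from 135783033 to 135810989, held 1 summit, 1221 bp after a listed start, in the promoter class. This peak, at 135800574 to 135800898, reached 6.92-fold (5.09 to 9.20) from 45 fragments, the third highest pileup among the 33 peaks. The 3 further peaks of the Tnni1 window that Tnnt2 does not share lay 17000 to 43373 bp outside the body, at 3.70-fold to 5.11-fold. One of these stood 52 bp before the start of Phlda3, and the other two lay in the body of Csrp1, so their tie to Tnni1 is by distance alone.

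Tnni3, the cardiac troponin I, is paired with Tnnt1, the slow skeletal troponin T, which begins 2329 bp beyond its end on chromosome 7. All 5 summits of the Tnni3 window lay within 10 kb of Tnni3. The peak at the Tnni3 start, 4522365 to 4522707, had 4.88-fold (3.30 to 6.98). Another, 408 bp before the start and in the body of the neighbouring gene Dnaaf3, had 3.46-fold (1.87 to 5.96). It held 11 fragments, and its pileup and fold were the lowest of the 33. The 3 stronger peaks stood on the Tnnt1 side. Of these, 2 lay 194 and 613 bp before the Tnnt1 start, at 6.24-fold (4.05 to 9.24) and 7.64-fold (5.49 to 10.4). The strongest, at 4509967 to 4510283, lay inside the Tnnt1 body, 5856 bp after its start and 8186 bp from Tnni3, with 57 fragments and 15.2-fold (11.5 to 19.6). It was also the only peak of the 5 that overlapped a TBX3 region. The authors' distances for the 3 stronger peaks match the Tnnt1 start. This is a matter of position, and peaks alone do not show which troponin gene of the pair they act on.

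Tnnc1, troponin C of heart and slow muscle, is a short gene of 3418 bp on chromosome 14 with 6 summits in its window. A single summit lay in the gene, 1051 bp after the start, in a peak of 5.38-fold (3.56 to 7.84) at 31209223 to 31209469. The other 5 all lay on the upstream side inside Nisch, the adjacent gene. Among these, a promoter-class peak 138 bp after a Nisch start lay 1624 bp from the Tnnc1 start and had 4.66-fold (3.08 to 6.80). The highest, at 31195193 to 31195425, reached 6.95-fold (4.55 to 10.2) at 12982 bp from Tnnc1. The remaining peaks had 5.48-fold at 9905 bp, 6.04-fold at 11446 bp and, in the promoter class, 5.38-fold at 21430 bp. The 6 peaks differed little in strength, from 4.66-fold to 6.95-fold, and their intervals overlapped. None of them overlapped a TBX3 region.

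Tpm1 encodes alpha-tropomyosin and, through several starts and alternative exons, a family of isoforms. It had the weakest peaks of the group, 4 summits between 3.46-fold and 4.71-fold, none with a −log10 q of 10 or more. No summit lay at the listed start. The nearest was 2214 bp inside the gene (3.46-fold, 2.22 to 5.16). Another, at 67043465 to 67043795 on chromosome 9, was the only promoter-class peak of the gene and lay 96 bp from an annotated start inside the body, with 3.53-fold (2.33 to 5.15). Both had a high background of 5.65 and 6.36 fragments, so their pileups of 22 and 25 fragments were near the median of the whole list. A peak of 3.62-fold (2.00 to 6.11) from 12 fragments lay farther inside, 23224 bp after the start. The strongest peak, 4.71-fold (2.85 to 7.38) at 67020310 to 67020572, lay 2110 bp beyond the end of the gene. Of all protein-coding genes 37.3% had a peak at least as strong within 50 kb.

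Actc1, the cardiac alpha-actin gene on chromosome 2, had the most summits, 11 within 50 kb and 9 within 10 kb. At least 11 summits within 50 kb were found at 0.176% of protein-coding genes and at 0.0212% of the shorter ones. The 9 summits stood within 11799 bp, from the promoter side to just past the end of the gene. No other summit of the list opened a stretch of 12 kb with as many. The span was chosen after the positions were seen, and with summits up to 500 bp apart counted once the stretch held 6, a number reached from 5 summits of the list. The folds of the 11 ran from 4.18 to 8.66.

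Around the Actc1 start 4 peaks lay within 2000 bp in the promoter class by that start. They stood 303 bp before it (7.63-fold, 5.35 to 10.6), 22 bp after it (4.96-fold, 3.28 to 7.24), 1302 bp after it (5.84-fold, 3.68 to 8.87) and 1568 bp after it (4.18-fold, 2.46 to 6.73). Another promoter-class peak, 1358 bp before the Actc1 start and 163 bp before a start of the RNA gene C130080G10Rik, had 7.36-fold (4.73 to 10.97). The intervals of these 5 peaks overlapped. The highest fold of the locus lay at the opposite end, 906 bp beyond the gene, at 114046214 to 114046854 with 8.66-fold (5.77 to 12.5) from 26 fragments. It and its neighbour of 5.76-fold (3.44 to 9.14), 1320 bp beyond the gene, were the only 2 of the 33 peaks that overlapped none of the 6 histone marks. Farther upstream, peaks 19183 and 35033 bp before the start had 7.58-fold (5.12 to 10.8) and 6.34-fold (3.78 to 10.1).

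The genes can be ordered by the strongest peak that is not nearer to another of them. The order was Tnnt2 (16.7-fold), Tnni3 (15.2-fold), Actc1 (8.66-fold), Tnnc1 (6.95-fold), Tnni1 (6.92-fold) and Tpm1 (4.71-fold). The Tnni3 value belongs to the peak inside Tnnt1, 8186 bp from Tnni3, while the peak at the Tnni3 start had 4.88-fold. The Tnnc1 value likewise belongs to a peak inside Nisch. Tnnt2 and Tnni3 did not differ beyond counting error, with a ratio of folds of 1.10 (exact conditional 95% interval 0.787 to 1.57). For Tnni3 over Actc1 the ratio was 1.75 (1.11 to 2.96), an interval without equality. Each peak was picked as the highest of its gene, and the pairs follow the order of the same folds. The intervals do not cover that choice, and no difference between genes was tested. The following ratios had intervals that include equality, 1.25 (0.689 to 2.27) for Actc1 over Tnnc1, 1.01 (0.575 to 1.65) for Tnnc1 over Tnni1 and 1.47 (0.854 to 2.84) for Tnni1 over Tpm1. Fold falls with the background, which ran from 1.68 to 6.36 fragments over the 33 peaks.

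**Figure D2:**
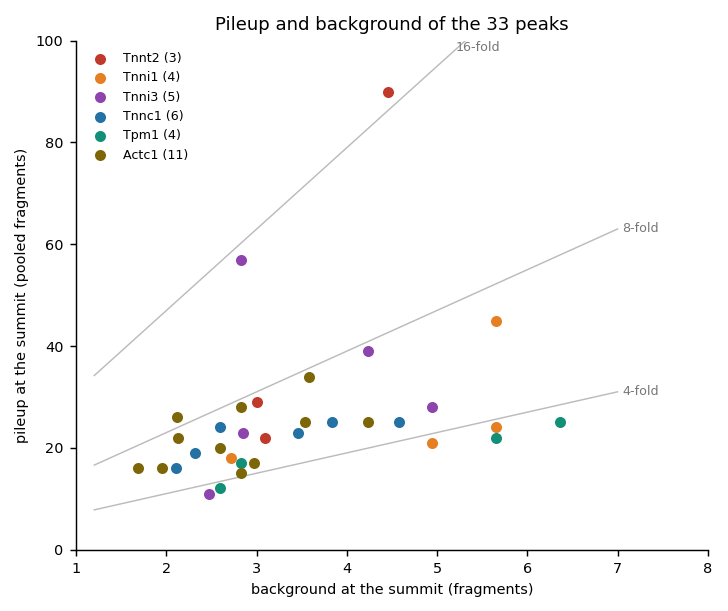
Pooled ChIP fragments at the summit (y axis) against the background at the summit (x axis, fragments) for the 33 peaks, with grey lines of equal fold and each peak coloured by its nearest gene of the 6. The Tnnt2 peak of 90 fragments and the Tnni3 peak of 57 fragments stand near the 16-fold line, while 3 of the 4 Tpm1 peaks lie below the 4-fold line.

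As a group the peaks were of ordinary strength. Their median fold was 5.62, against 5.67 in the whole list, and 12 of 33 (36.4%) had a −log10 q of at least 10, against 41.5%. By class the comparison went in opposite directions. The 18 promoter-class peaks had a median of 5.56-fold against 4.398-fold over the 3055 promoter-class peaks of the list, and the 15 others a median of 5.62-fold against 6.23-fold over 9381. These medians were not tested, because the peaks have no replicate values and those of a locus are not independent.

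**Figure D3:**
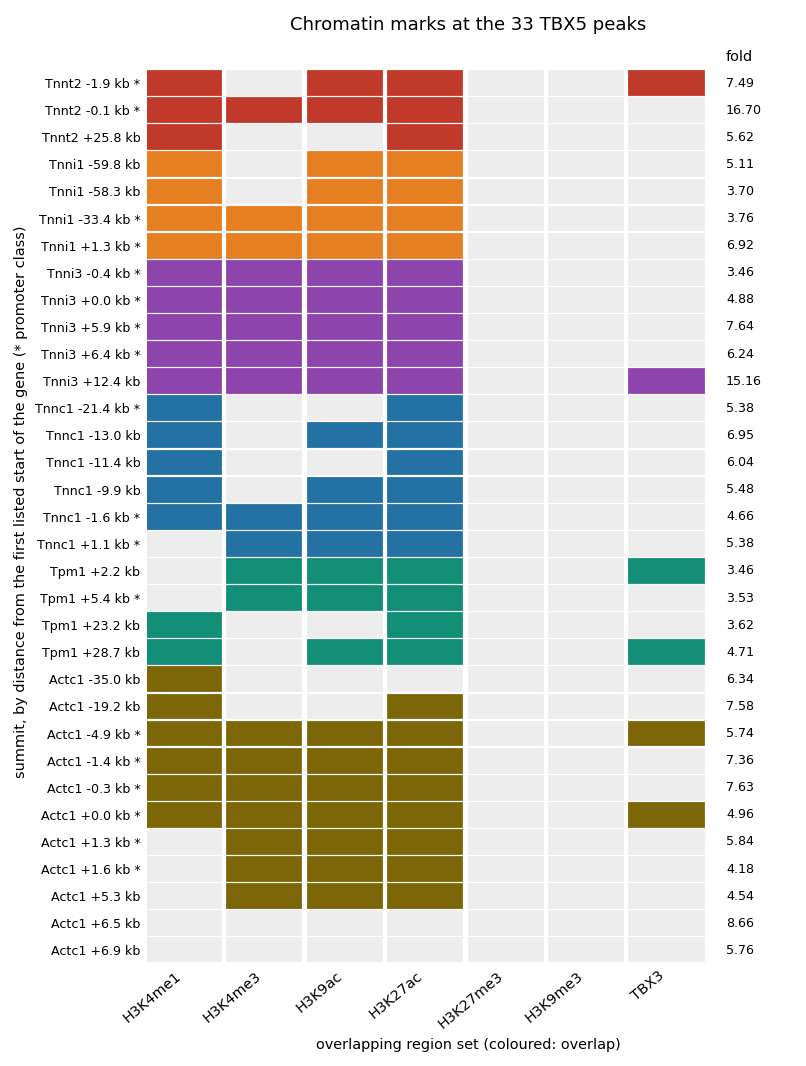
Overlap of each of the 33 peaks (rows, labelled with the nearest of the 6 genes, the distance from its first listed start and an asterisk for the promoter class) with regions of 6 histone marks and of TBX3 (columns), with the fold at the right. Coloured cells are overlaps. H3K27ac fills 30 of 33 rows, H3K27me3 and H3K9me3 fill none, and the bottom rows, 2 peaks past the end of Actc1, are empty.

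The chromatin marks around the bound regions came next. A peak counted as marked where the authors' annotation recorded an overlap with any region set of that mark. By their names these sets come from the public ENCODE collection, not from the samples of this series. Neither the labels nor the files name the tissue or stage of these sets. H3K27ac, a mark of active enhancers and promoters, overlapped 30 of 33 peaks (90.9%, exact Clopper-Pearson 95% interval 75.7 to 98.1, against 73.5% of all peaks). The 3 without it all belonged to Actc1, namely the 2 unmarked peaks past its end and the peak 35033 bp upstream, which carried H3K4me1 and was the only peak in the poised class. H3K9ac, another mark of active chromatin, was found at 25 peaks (75.8%, 57.7 to 88.9, against 46.0%). H3K4me3, typical of active promoters, was found at 19 (57.6%, 39.2 to 74.5, against 31.8%), and H3K4me1, typical of enhancers, at 25 (75.8%, 57.7 to 88.9, against 72.3%). The repressive marks H3K27me3 and H3K9me3 overlapped 0 of 33 peaks. With no count the exact interval reaches 10.6%, and in the list these marks overlapped 1.63% and 0.241%, so an absence was not detectable with 33 peaks.

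Promoter-class peaks made up 18 of the 33 (54.5%, 36.4 to 71.9, against 24.6%). The 33 were picked for lying in or within 50 kb of a gene, and the list was not. The rule itself may therefore raise this share. Of the 18, 12 lay within 2000 bp of a listed start of the thin-filament genes, and the rest were in the class by other annotated starts. Within the promoter class H3K4me3 stood at 16 of 18 peaks (88.9%) against 90.9% in the list, and H3K9ac at 17 of 18 (94.4%) against 93.0%. Outside the promoter class H3K9ac stood at 8 of 15 peaks (53.3%, 26.6 to 78.7) against 30.7%, and H3K4me3 at 3 of 15 against 12.6%. H3K27ac stood at 18 of 18 promoter-class peaks against 93.9%, and at 12 of 15 others (80%, 51.9 to 95.7) against 66.9%. H3K4me1 stood at 14 of these 18 promoter-class peaks (77.8%, 52.4 to 93.6), against 39.7% of such peaks in the list. Outside the class the order was the opposite, with H3K4me1 at 11 of 15 peaks (73.3%, 44.9 to 92.2) against 82.9%, an interval that includes the value of the list. All 5 peaks of the Tnni3 window carried H3K4me1, H3K4me3, H3K9ac and H3K27ac together, the 15.2-fold peak in Tnnt1 included, although it lies outside the promoter class. That combination marked 13 of the 33 peaks (39.4%) and 14.2% of the list. Of the 11 Actc1 peaks 7 carried H3K4me3, including that at 114047476 to 114047651 near the end of the gene, 5295 bp from the start. Intervals treat peaks as independent, and none of these differences was tested.

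TBX3, a related T-box factor of the conduction system, shares DNA recognition with TBX5, and the tissue and stage of its regions are likewise not named in the labels or the files. They overlapped 6 of the 33 peaks (18.2%, 6.98 to 35.5, against 27.03% of all peaks). These 6 were the peak 1910 bp before Tnnt2, the 15.2-fold peak near Tnni3, the 3.46-fold and 4.71-fold peaks of Tpm1, and 2 Actc1 peaks, 22 bp after and 4886 bp before the start. The 16.7-fold Tnnt2 peak overlapped none. In the promoter class the overlap was 3 of 18 (16.7%, 3.58 to 41.4), against 45.0% of promoter-class peaks in the list, and among the others 3 of 15 against 21.2%.

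**Figure D4:**
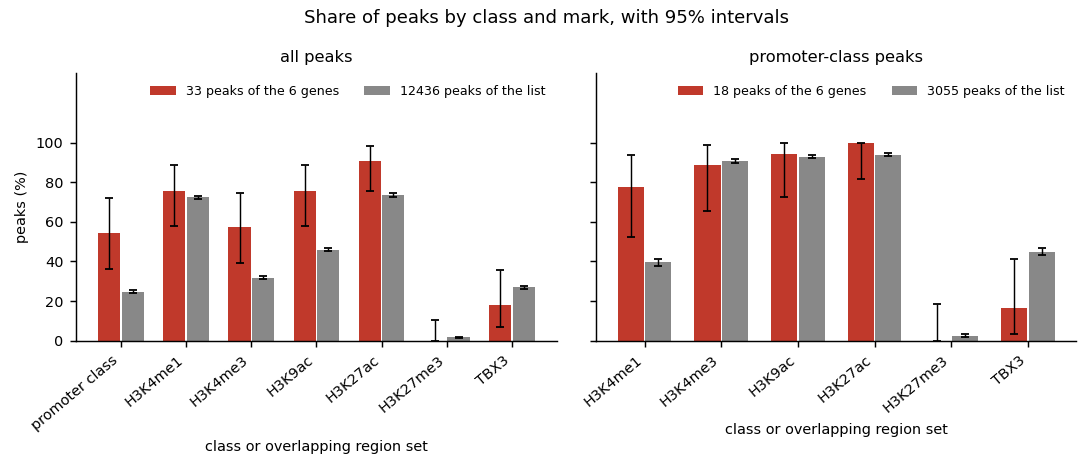
Share of peaks (y axis, %) in the promoter class or overlapping each region set, for the peaks of the 6 genes (red) and all peaks of the list (grey), over all peaks at the left and the promoter class at the right, with exact 95% intervals as bars. At the right, H3K4me1 is at 77.8% against 39.7% and TBX3 at 16.7% against 45.0%, while H3K4me3 and H3K9ac are nearly level.

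The genes of other forms of the same proteins were examined in the same heart data, and no other muscle was assayed. Of 12 paralogs, the skeletal, smooth muscle and non-muscle troponins, tropomyosins and actins, 9 had a summit within 50 kb and 6 within 10 kb, against 49.8% and 29.9% of all genes. Acta1 and Acta2, the skeletal and the smooth muscle alpha-actin, and Tpm4 had none within 50 kb, with the nearest at 54517, 497881 and 86448 bp. The highest folds near paralogs lay in other genes. Actg1, a cytoplasmic actin, had a 51.1-fold peak (44.2 to 58.9) 34262 bp away in the body of Nploc4. Tnni2 and Tnnt3, the fast skeletal troponins I and T, shared a 21.6-fold promoter-class peak (17.6 to 26.3) in the body of Lsp1, 15113 bp from Tnni2 and 39248 bp from Tnnt3. Tnnt3 had no summit within 10 kb. A fold of 10 or more was reached within 50 kb of 4 of the 12 paralogs (33.3%), against 11.5% of all genes. The median strongest fold of the 9 with a summit was 6.18, against 11.9 for the 6 cardiac genes and 6.23 for all genes with a summit. The value of 11.9 counts the Tnnt2 peak for Tnni1 as well. With each shared peak counted only for the nearer of Tnnt2 and Tnni1 it was 7.80. The paralog value was not adjusted for shared peaks. Tnnt1 shares its 5 summits with Tnni3.

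Proteins that cap, lengthen or assemble thin filaments had a summit within 50 kb at 12 of 15 genes (80%), and within 10 kb at 11, against 49.8% and 29.9% of all genes. Of these 15 genes 10 are longer than 30 kb, as is none of the 6, and the shares were not matched for length. Nrap, a protein of early myofibril assembly, had the strongest peak (22.01-fold, 17.2 to 27.7), followed by Neb, which encodes nebulin (20.4-fold, 16.1 to 25.4), and Fhod3, a formin of cardiac actin filaments (16.4-fold, 12.5 to 21.2). These 3 peaks lay inside the genes. Cfl2, Tmod2 and Xirp2 had no summit within 50 kb. A fold of 10 or more was reached at 8 of these 15 genes, against 11.5% of all genes. Of 10 thick-filament genes 8 had a summit within 50 kb, and 4 reached 10-fold, against the same 49.8% and 11.5%. Myl2, the ventricular myosin light chain, stood highest with 62.2-fold (55.2 to 69.8), above every peak of the 6 thin-filament genes. Myh6 and Myh7, the neighbouring myosin heavy chain genes, shared an 18.3-fold peak (14.6 to 22.7), and Myh7b and Myl3 had none within 50 kb. The counts of these lists were not tested against each other.

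**Figure D5:**
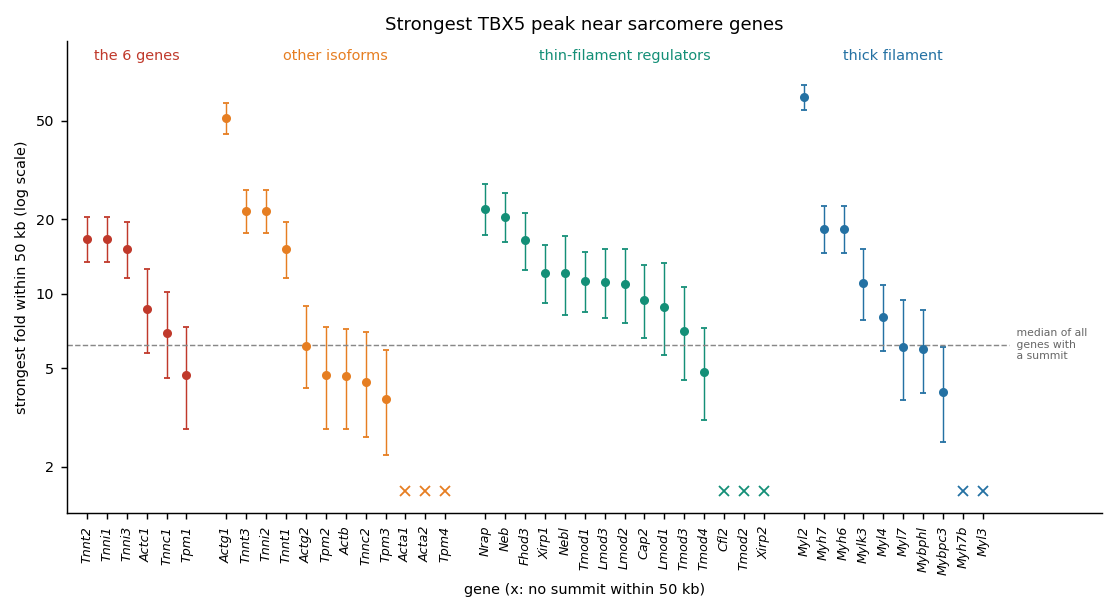
Strongest fold within 50 kb (y axis, log scale) of each gene of the 4 lists, with 95% Poisson intervals as bars and a cross for genes without a summit. The dashed line is the median of all protein-coding genes with a summit, 6.23. The 6 genes span 4.71 to 16.7, and Myl2 (62.2) and Actg1 (51.1) stand above the rest.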

How the data were processed

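TBX5 ChIP-seq peaks of 2 pooled ChIP samples against 1 input sample were used as deposited. Per the submitters' processing notes the authors worked on mm10 with Bowtie2, SAMtools, MACS2 and ChIPseeker, without versions or settings being named there. Libraries held fragments of 200 to 650 bp sequenced from a single end over 50 bases, as the labels' protocols say. The file names and peak names show that peaks were called on pooled samples, so depth per sample is unknown. The fold is the ratio that the authors deposited for each summit, and −log10 p and −log10 q are theirs too. The deposited score equals 10 times −log10 q truncated, for all 12436 peaks. Promoter and chromatin classes, distances to starts and overlaps with marks and TBX3 regions were taken from the authors' table. Such values only describe, rank or filter peaks within this list. Positions are 1-based on mm10.

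Summit fragments and background were solved from the fold, (fragments + 1)/(background + 1), and the upper Poisson tail. A whole number matched −log10 p within 0.0005 for 12436 peaks, and in 100% of 998 simulated peaks the number was recovered. Gene bodies are those of RefSeq on GRCm38.p6 (21631 protein-coding genes, chromosome Y left out), and promoters matched all 6 genes by symbol. The 6 genes and the gene lists were chosen with earlier results of these data known. For the 6 genes the strongest summit and those in the promoter class near their starts are given in full and the others by position or range, and from each list the 3 genes with the strongest summit and those without one. No test was run, since pooled peaks have no replicate values. Alternatives were the window, the −log10 q threshold, overlap in place of summit, the promoter distance and the rule for marks. Scripts ran under Python 3.11.15 with scipy 1.17.1, numpy 2.4.6, matplotlib 3.10.9 and pandas 2.3.3.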

Additional observations from a re-analysis of the deposited data

How the results depend on the processing

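Of 68 recomputed values 56 stayed within 1.5 times the reported count or within the reported interval. The median fold has no interval of its own and was judged by that of the peak nearest to it, 3.62 to 8.39. This wide interval still held the median of 7.54 found with −log10 q of at least 10, in place of 5.62. Within 10 kb H3K4me1 stood at 68% of the peaks, below the 72.3% of the whole list, and within 100 kb their median fold was 5.74, above the 5.67 of the list, while both lay on the other side at 50 kb. Without extension of the gene body 10 of the 33 peaks remained, at 5 of the 6 genes, since Tnnt2 holds none. The counts were 4 of 12 paralogs and 5 of 10 thick-filament genes, against 19.2% of all protein-coding genes. With −log10 q of at least 10, 12 peaks remained, at all genes except Tpm1, and 5 of 12 paralogs had a summit. The share of all protein-coding genes was not taken at that threshold. Tnni1 had a strongest fold of 6.92 at 10 kb in place of the 16.7 shared with Tnnt2. Actc1 gained a 12.5-fold peak at 100 kb. With summits within 1000 bp of a start in place of the promoter class, the share was 33.3%, against 21.1% in the list. Here too the list was not limited to peaks near a gene. H3K4me1 stood at 91.7% of the 12 peaks with −log10 q of at least 10, and no share of the list was taken at that threshold. Where both of its files had to overlap, H3K4me1 stood at 54.5% of the 33, against 52.5% in the list. The number of summits opening a run as dense as that at Actc1 was 3 for a span of 5 kb and 5 with summits up to 500 bp apart counted once, and 1 for spans of 10 and 20 kb. Spans and merging were chosen after seeing the data. No paired analysis was possible because the ChIP samples were pooled before peaks were called, and for the same reason no sample could be left out. Precision is limited by the 11 to 90 fragments at each summit.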

Other observations

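The 50 kb limit left some peaks just outside. The next peak beyond the Tnni1 window lay 51138 bp from its body with 5.62-fold enrichment, and it is the same peak that lies 9859 bp past Tnnt2. The farthest peak inside that window lay at 43373 bp with 5.11-fold. At Actc1 the farthest inside lay at 35033 bp (6.34-fold) and the next outside at 65918 bp (5.08-fold). For Tnni3, Tnnc1 and Tpm1 the next summits were 299928, 125235 and 102802 bp away, so the summits of these 3 genes stood alone in wide stretches without a peak.

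The protein-coding genes most like Tnnt2 by number of summits and strongest fold were taken from the 753 others with 4 summits within 50 kb. The 5 nearest on a log scale were Lad1, which shares the 16.7-fold peak with Tnnt2, and Vav2 (16.7-fold), Tent2 (16.6-fold), Kctd1 (16.8-fold) and Plcl2 (16.8-fold). This likeness covers 1 pooled measurement and is no comparison across conditions.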
